A study of Mus musculus with 29 samples.

Results

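RNA sequencing of frozen subcutaneous white fat was compared between 4 male mice with a knockout of Ncoa1 (library codes M31 to M34) and 4 wild-type males (M11 to M14), all injected intraperitoneally for 7 days with 0.5 mg/kg CL316,243 (CL), which activates the β3-adrenergic receptor. These 8 libraries were chosen by their codes among 29 sample records of a study of sex differences in thermogenesis of white fat in NCOA1 knockout mice, which also holds females and saline-treated (NaCl) mice. Other comparisons stood beside the main one where a difference between sexes or treatments was asked. CL-treated females had 3 knockout and 4 wild-type libraries, and saline-treated males had 2 knockout and 4 wild-type libraries in the same deposited table. The sources used here do not give strain, age or the exons that the knockout removes. The labels do not state that each library is a separate animal, so p-values measure a spread between libraries.

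NCOA1, also called SRC-1, is a coactivator: nuclear receptors that have bound a hormone or lipid ligand recruit it to DNA, where it brings in enzymes that open chromatin. In white fat, the β3 receptor raises cyclic AMP in adipocytes, which starts lipolysis and, over days, turns on the genes of beige adipocytes. Their hallmark is UCP1, a mitochondrial protein that lets protons leak back and so turns fuel oxidation into heat. The comparison asks how expression in treated male fat differs with and without Ncoa1.

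Levels are FPKM, which scales fragments to the length of the transcript and the size of the library. Differences are knockout minus wild type in log2(FPKM + 1) with their standard error (SE), which understates the ratio of genes at a few FPKM. Tests are limma's, with p-values adjusted by Benjamini and Hochberg over 13113 genes and a gene called below 0.05. Their spread is estimated from all 24 columns of the deposited table that holds these libraries, in 8 groups. It is therefore not that of the 8 compared libraries alone, which were fitted by themselves as an alternative. Summed FPKM was 563255 to 648492 in knockout and 584921 to 613445 in wild-type libraries, and the absolute depth is unknown. Knockout libraries held fewer genes at 1 FPKM or more (11499 to 11911 against 11922 to 12162; exact two-sided permutation p = 0.0286, the smallest that 4 against 4 can give). The adipocyte marker Adipoq stood at 1904.08 to 3483.94 FPKM in all 8 libraries.

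Several libraries stood apart. Of 15 skeletal muscle genes, the mean log2 level was 7.69 in M14 and 5.48 in M34, against 0.94 to 1.16 in the other 6 libraries. Muscle α-actin, Acta1, read 867.79 FPKM in M14 and 213.16 in M34, against 7.49 to 27.63 elsewhere. Outside these libraries the muscle genes Ckm, Pvalb, Tcap, Myh2 and Myh4 were each listed at 0 in at least 1 library, and no lymphocyte gene was listed at 0 in any of the 8. Lymphocyte markers, 14 genes of T, B and natural killer cells, had a mean log2 level of 0.47 in M31, 1.62 in M34, 3.51 in M32 and 4.34 in M33, while the wild types lay at 4.17 to 4.48. Summed over the lists, muscle genes came to 72.0 to 1330 FPKM in knockouts and 114 to 5200 in wild types, and lymphocyte genes to 6.09 to 340 and 308 to 528. The B cell receptor component Cd79a, for example, read 0.65, 7.77, 25.88 and 0.76 FPKM in M31 to M34 and 61.33 to 180.54 in wild types. By limma 0 of 14 lymphocyte and 0 of 15 muscle genes passed the test (4 and 0 at an unadjusted p under 0.05), and their part in the results below was not tested. Of all tested genes 13.8% had an unadjusted p under 0.05. With only the 8 libraries fitted, 3 of the 14 lymphocyte genes were lower, among them Ms4a1 (-3.19 ± 0.47, adjusted p = 0.013) and Cd79a (-4.15 ± 0.85, 0.047). The median difference of the lymphocyte list was -1.42, and -1.07 without M14 and M34, where all 14 were negative. In CL-treated females it was -0.45 and in saline-treated males -1.95. The median of the muscle list was -0.64, and -0.04 without M14 and M34. In such bulk samples, fewer cells of a type and less RNA per cell cannot be told apart. Counts of calls, and calls and list medians that moved, are therefore also given without M14 and M34, which leaves 3 libraries a side.

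**Figure D1:**
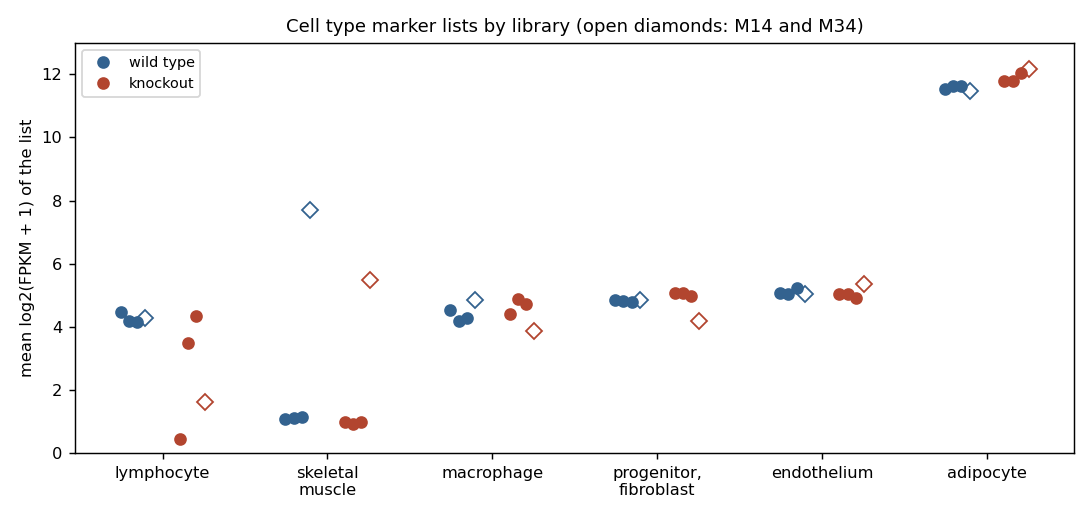
Mean log2(FPKM + 1) of 6 lists of cell type markers (x axis) in each library, with wild types in blue, knockouts in red and the muscle-rich libraries M14 and M34 as open diamonds. The muscle list is high in M14 (7.69) and M34 (5.48), and the lymphocyte list is low in M31 (0.47) and M34 (1.62).

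The targeted gene, Ncoa1 (chromosome 12, 4247362 to 4477206 in GRCm38, gene ID 17977), read 2.73, 2.55, 2.26 and 1.47 FPKM in the knockouts and 6.06, 5.98, 6.58 and 5.73 in the wild types. All knockouts lay below all wild types, with transcripts reduced and still detected. The difference was -1.14 ± 0.11 (adjusted p = 1.1e-05) and -1.04 ± 0.11 without M14 and M34 (6.9e-05). The related coactivators Ncoa2 (-0.02 ± 0.13, adjusted p = 0.96) and Ncoa3 (-0.26 ± 0.15, 0.47) did not pass. Among 29 tested nuclear receptors and coregulators Ncoa1, the targeted gene itself, was the single call, where 1.56% of all genes were called. The liver X receptor α gene Nr1h3 (0.46 ± 0.14, adjusted p = 0.11) and the estrogen receptor Esr1 (0.43 ± 0.17, 0.26) did not pass, although Nr1h3 did after median scaling (0.035) and quantile normalization (0.047).

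Of the 13113 genes, 87 were higher in knockouts (0.663%) and 118 lower (0.9%), or 1.56% in all, and 193 of these 205 showed no overlap between the groups. Over all tested genes 11.6% had groups that share no values. Most genes lay slightly below zero: the median difference was -0.06 and 64.0% were negative. Scaling each library to its median gave 154 higher (1.17%) and 80 lower genes (0.61%), and quantile normalization 156 (1.19%) and 78 (0.595%), so the balance of directions depends on scaling. Without M14 and M34 there were 52 calls, 23 higher (0.177%) and 29 lower (0.223%), all among the 205, and every called gene that could still be tested kept its sign (84 of 84 higher and 118 of 118 lower). The number of calls also fell when M11 (63), M12 (108), M13 (119), M14 (129), M32 (103), M33 (135) or M34 (93) was left out alone. It was 246 without M31.

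The largest falls and rises named below were picked among calls whose groups do not overlap. Their separation was set by that choice. Ucp1 had the largest fall among the named genes (gene ID 22227, chromosome 8, 83290348 to 83298456). It read 6.97, 10.67, 23.82 and 9.10 FPKM in the knockouts against 400.65, 219.43, 237.40 and 528.84 in the wild types. The highest knockout lay far below the lowest wild type, and the group means, 12.6 ± 7.61 and 347 ± 146 FPKM (SD, n = 4 each), differed 27.4-fold. The log2 difference of -4.72 ± 0.50 (adjusted p = 2.1e-05) was -4.39 ± 0.59 without M14 and M34 (0.0011) and passed in all 20 alternative settings (1.1e-06 to 0.014). The gene with the largest rise was Sugct (gene ID 192136, chromosome 13, 16857472 to 17694795), an enzyme that passes coenzyme A from succinyl-CoA to glutarate in lysine breakdown. Its level was 7.09, 8.73, 7.96 and 10.81 FPKM in knockouts and 0.22, 0.46, 0.48 and 0.29 in wild types, and the groups did not overlap. It differed by 2.81 ± 0.39 (adjusted p = 0.00071), by 2.69 ± 0.48 without M14 and M34 (0.016), and passed in all 20 alternatives (4.2e-05 to 0.016).

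The start regions of Ucp1 and Sugct, the genes with the largest fall and rise, and of Acadm, a fatty acid oxidation gene described further on, are shown because each holds AGGTCA, the core letters that many nuclear receptors bind. The windows run from 250 bases before to 50 after the RefSeq start (GRCm38.p6), 5′ to 3′ on the gene's strand, with the motif in capitals. They lie at chr8:83290098-83290397 (+), chr13:17694716-17695015 (−) and chr3:153944594-153944893 (−).
Ucp1: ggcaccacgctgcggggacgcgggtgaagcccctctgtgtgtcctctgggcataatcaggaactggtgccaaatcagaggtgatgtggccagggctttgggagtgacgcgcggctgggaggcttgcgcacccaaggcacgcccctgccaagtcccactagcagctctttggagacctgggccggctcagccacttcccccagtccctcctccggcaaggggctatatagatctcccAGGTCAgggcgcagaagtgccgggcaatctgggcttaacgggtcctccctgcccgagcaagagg
Sugct: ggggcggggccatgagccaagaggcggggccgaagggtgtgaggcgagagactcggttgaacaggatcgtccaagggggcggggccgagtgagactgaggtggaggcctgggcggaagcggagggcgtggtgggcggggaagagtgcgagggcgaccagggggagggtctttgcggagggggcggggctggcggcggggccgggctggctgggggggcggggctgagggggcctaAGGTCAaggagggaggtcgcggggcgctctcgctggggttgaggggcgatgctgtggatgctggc
Acadm: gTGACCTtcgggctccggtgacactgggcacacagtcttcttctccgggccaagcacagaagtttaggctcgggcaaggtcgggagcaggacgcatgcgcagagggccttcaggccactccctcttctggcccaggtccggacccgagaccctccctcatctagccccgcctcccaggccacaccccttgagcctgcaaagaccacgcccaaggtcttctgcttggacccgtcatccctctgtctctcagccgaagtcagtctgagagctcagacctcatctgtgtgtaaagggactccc
Counted from the start site, the motif's first base is at -14 in Ucp1 and -15 in Sugct, and at -249 in Acadm, where it reads TGACCT because it lies on the other strand. Searched on both strands, AGGTCA was in 3 of the 19 strongly fallen or risen genes that had a window (Ucp1, Sugct and Sycp3) out of 24. It was in 15 of 78 lower genes with a window (19.2%), 13 of 63 higher genes (20.6%), 15.0% of the 10388 tested genes with one and 16.3% of all 32851 windows. A match describes the letters and is not evidence of binding.

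**Figure D2:**
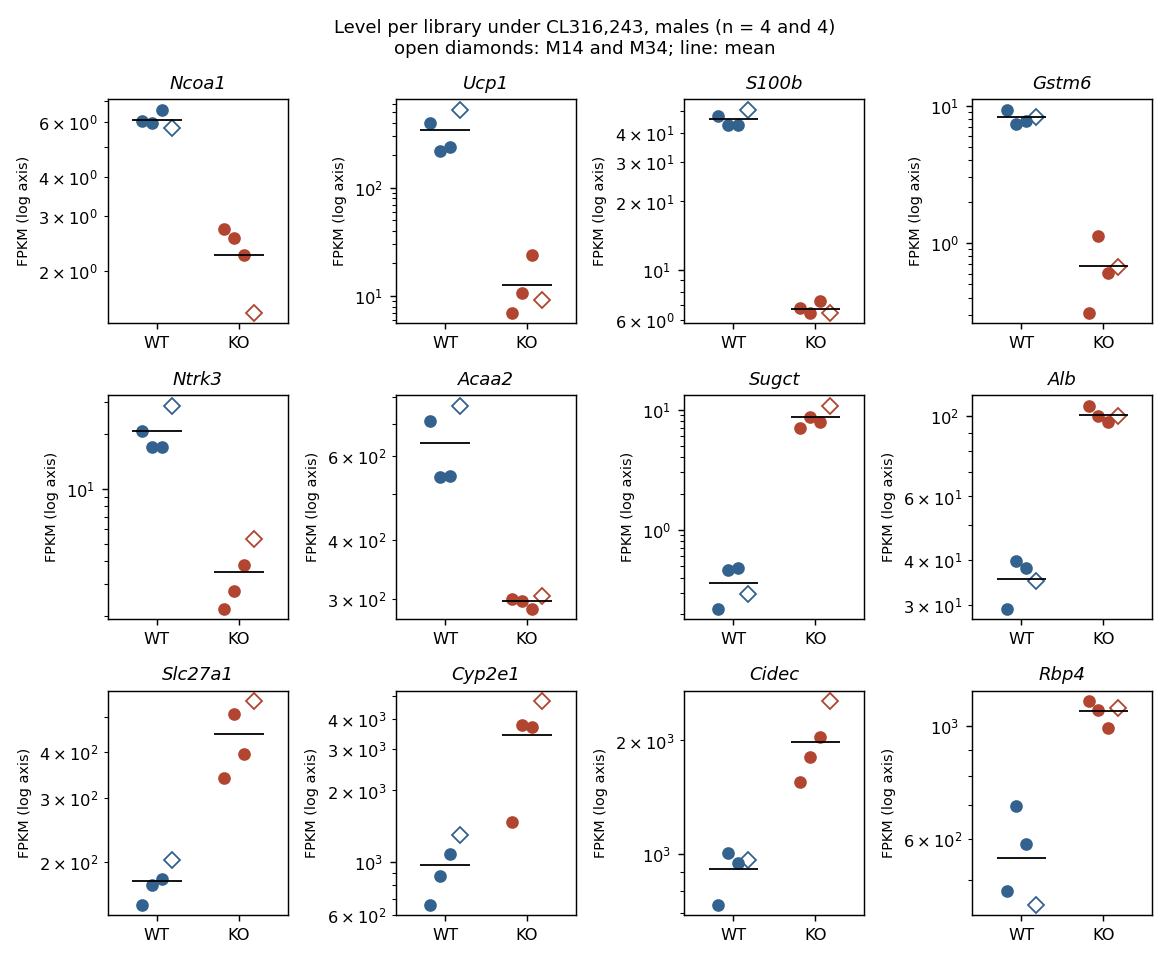
FPKM of 12 genes in each library on a log axis, wild type (WT, blue) and knockout (KO, red), with the group mean as a line and M14 and M34 as open diamonds. In all 12 panels the groups do not overlap, for example Ucp1 at 6.97 to 23.82 in knockouts and 219.43 to 528.84 in wild types. For all but Ncoa1, Acaa2, Cidec and Rbp4, lack of overlap was a condition for being picked.

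Apart from Ucp1, the falls that held in all 20 alternatives were those of S100b, Gstm6, Ntrk3 and Lrmda. S100b, a calcium-binding protein that thermogenic adipocytes release toward nerve fibres (gene ID 20203, chromosome 10, 76253836 to 76261319), read 6.78, 6.44, 7.27 and 6.46 FPKM in knockouts and 47.61, 43.31, 43.49 and 50.85 in wild types. The knockouts spanned 6.44 to 7.27 FPKM, far below every wild type (-2.61 ± 0.21, adjusted p = 8.8e-07). Gstm6, a glutathione S-transferase of the mu class (gene ID 14867, chromosome 3, 107938847 to 107953641), read 0.31, 1.12, 0.61 and 0.67 against 9.33, 7.39, 7.74 and 8.28 FPKM (-2.47 ± 0.15, 1.3e-08). Reads of its near-identical relatives may have been divided among them, so this level is uncertain. Ntrk3, the receptor of neurotrophin-3 (gene ID 18213, chromosome 7, 78179986 to 78581034), was at 2.20, 2.75, 3.81 and 5.28 against 20.71, 17.02, 16.97 and 28.54 FPKM (-2.29 ± 0.22, 9.4e-06). Lrmda, a leucine-rich repeat gene named for melanocyte differentiation, was at 1.72 to 3.04 against 8.74 to 17.31 FPKM (-1.90 ± 0.25, 0.00027). None of these groups overlapped, which was a condition for naming these falls.

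The other 7 of the 12 named falls lost their call somewhere. Ppp1r3b, which ties protein phosphatase 1 to glycogen, fell from 39.1 ± 10.0 to 6.84 ± 2.66 FPKM (SD, n = 4 each; -2.37 ± 0.47, adjusted p = 0.013), and did not pass without M11 (0.056) or without M14 and M34 (0.059). Acot11, an acyl-CoA thioesterase of brown fat, was at 1.44 to 2.23 FPKM against 7.08 to 28.62 (-2.32 ± 0.40, adjusted p = 0.0045; 0.059 without M14 and M34). Otop1, a proton channel, was at 4.88 to 7.53 against 18.36 to 24.34 FPKM (-1.66 ± 0.28, 0.0032; 0.053 without both). Pmepa1, which dampens TGF-β signals, was at 7.69 to 19.69 against 38.40 to 78.78 FPKM (-1.97 ± 0.35, 0.0058; 0.081 without both). Fam20c, a Golgi kinase of secreted proteins, fell by 1.92 ± 0.27 (adjusted p = 0.00071) and passed without M14 and M34 (0.018), but not when only the other 6 libraries were fitted (0.068). Prr32 fell by 2.11 ± 0.44 (0.017; 0.04 without both) but did not pass without M32 (0.058), M34 (0.076), M11 (0.057), M12 (0.066) or M13 (0.062). The membrane protein gene Emp1 fell by 1.62 ± 0.33 (0.017) and did not pass without M32 (0.052), M33 (0.055), M34 (0.058) or M12 (0.066), nor without M14 and M34 (0.1).

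Among the rises, Alb, Slc27a1 and Rprml held in all 20 alternatives as Sugct did. Alb, serum albumin (gene ID 11657, chromosome 5, 90460870 to 90476602), read 107.17, 100.36, 96.62 and 100.27 FPKM in knockouts and 29.29, 39.71, 38.07 and 35.07 in wild types (1.49 ± 0.21, adjusted p = 0.00071). Slc27a1, the fatty acid transport protein FATP1 (gene ID 26457, chromosome 8, 71568728 to 71587307), read 340.80, 510.95, 394.64 and 552.45 against 152.00, 171.96, 178.92 and 202.33 FPKM (1.33 ± 0.21, 0.0026). Each knockout lay above each wild type for both genes, as the rule for naming the rises requires. Rprml, a relative of the cell cycle gene Reprimo, was at 30.37 to 94.97 against 9.40 to 16.08 FPKM (1.99 ± 0.35, 0.0048). Gsta3, an alpha-class glutathione transferase, rose by 1.25 ± 0.21 (0.0033) and Serpina3m by 1.28 ± 0.21 (0.0031), and both also passed without M14 and M34 (0.048 and 0.023). With only those 6 libraries fitted they did not (0.083 and 0.072). Serpina3m and Serpina3k belong to a family of near-identical serine protease inhibitors, so how reads divided among its members is uncertain.

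The remaining 6 named rises were less stable. Sycp3, a protein of the meiotic synaptonemal complex, was at 22.74 to 32.90 against 0.90 to 11.00 FPKM (2.39 ± 0.45, adjusted p = 0.01) and did not pass without M11 (0.053) or M14 and M34 (0.063), nor, narrowly, with only the 8 libraries (0.05). Fam110c was at 5.85 to 7.74 against 1.89 to 2.90 FPKM (1.23 ± 0.24, 0.011; 0.09 without M14 and M34). Rbp7, a retinol-binding protein of adipose tissue, was at 113.58 to 211.59 against 29.77 to 46.82 FPKM (1.98 ± 0.45, 0.031) and passed without M31 or without M33, but not without M32 (0.099), M34 (0.086), M11 (0.093), M12 (0.098), M13 (0.063), M14 (0.056) or both muscle-rich libraries (0.13), nor without a filter (0.051) or with the replicate block (0.062). The cytochrome P450 Cyp2e1 was at 1474.13 to 4742.64 against 660.67 to 1293.30 FPKM (1.73 ± 0.36, 0.017) and did not pass without M32 (0.061), M33 (0.052), M34 (0.073), M11 (0.08), M12 (0.055) or M14 and M34 (0.09). Agt, angiotensinogen, rose by 1.69 ± 0.40 (0.036) but not without M32 (0.11), M33 (0.07), M34 (0.094), M11 (0.13), M13 (0.072), M14 (0.11) or M14 and M34 (0.22), nor without a filter (0.058) or with the replicate block (0.062). Serpina3k rose by 1.88 ± 0.45 (0.041), a call that every single omission but that of M31 ended (0.06 to 0.14; 0.18 without both), as did a pseudocount of 0.1 (0.1), no filter (0.064), fitting only the 8 libraries (0.051) and the replicate block (0.062).

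Genes of thermogenic adipocytes mostly had lower levels in knockouts. Of 21 tested brown and beige adipocyte genes, 5 fell and 0 rose, where 0.9% of all genes fell. The median difference was -0.83 against -0.06 over all genes, and 20 of 21 were negative against 64.0% of all genes. Those called were Ucp1, S100b, Acot11, Otop1 and the mitochondrial gene Letmd1 (-0.86 ± 0.21, adjusted p = 0.038). Letmd1 passed in 7 of 20 alternatives (0.023 to 0.27) and not without M31 (0.076), M32 (0.08), M33 (0.07), M34 (0.11), M11 (0.16), M12 (0.058) or M14 (0.12), nor after median scaling (0.061), without a filter (0.058), with only the 8 libraries (0.051) or with the replicate block (0.064). Without M14 and M34, 2 of 21 passed (Ucp1 and S100b) and the median was -0.70. With only the 8 libraries fitted, 7 of 21 were lower. Cidea, a lipid droplet protein typical of brown fat, read 166.26, 293.55, 262.24 and 337.08 FPKM in knockouts and 679.88, 455.17, 550.90 and 1029.00 in wild types. The groups did not overlap, but the difference of -1.33 ± 0.34 did not pass (adjusted p = 0.055; 0.039 to 0.2 over alternatives, 3 of 20 passing).

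Other members had separate groups without a call. Fabp3, a fatty acid carrier of muscle and brown fat, was at 2.40 to 6.33 FPKM in knockouts and 59.97 to 105.19 in wild types (-3.85 ± 1.09, adjusted p = 0.093; 0.00029 to 0.29 over alternatives). Cox7a1, a cytochrome oxidase subunit of the same tissues, was at 182.43 to 213.56 against 484.47 to 1061.90 FPKM (-1.74 ± 0.56, 0.14; 0.0066 to 0.45). Both were named after their values were seen, and both were as low in M34 as in the other knockouts. With only the 8 libraries fitted both passed, Fabp3 at -3.85 ± 0.27 (adjusted p = 0.00029) and Cox7a1 at -1.74 ± 0.22 (0.0066). The coactivator Ppargc1a was at 0.66 to 1.09 against 1.25 to 1.75 FPKM (-0.38 ± 0.16, 0.3). Not all markers separated the groups: the elongase Elovl3 read 19.41, 10.35, 6.13 and 5.65 FPKM in knockouts and 21.18, 10.36, 11.00 and 30.40 in wild types, which overlap (-0.78 ± 0.38, 0.38). The deiodinase Dio2, near 1 FPKM, also overlapped (-0.28 ± 0.23, 0.65). The creatine and calcium cycling genes used for heat without UCP1 gave 0 calls among 10 by limma (1 at an unadjusted p under 0.05, against 13.8% of all genes). Their median of -0.26 was -0.05 without M14 and M34, and the list holds the muscle genes Atp2a1 and Ckmt2.

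Mitochondrial genes followed the same direction with smaller differences. In fatty acid oxidation 8 of 20 fell (0.9% of all genes) and 0 rose, with 19 of 20 negative (64.0% of all genes) and a median of -0.46. With only the 8 libraries fitted 6 of 20 fell. After median scaling 2 of 20 fell, and without M14 and M34 also 2, with medians of -0.39 and -0.38. These 2 were Acaa2 and Acadm. Acaa2, the thiolase of the last step, read 299.89, 297.21, 286.04 and 304.69 FPKM in knockouts and 711.49, 541.16, 543.43 and 766.24 in wild types (-1.09 ± 0.15, adjusted p = 0.00071). Acadm, the medium-chain acyl-CoA dehydrogenase whose start region is printed above, read 333.20, 375.71, 323.79 and 284.86 against 616.29, 556.64, 525.69 and 621.65 FPKM (-0.82 ± 0.12, 0.00072). Knockouts lay below wild types without overlap in both genes, and both calls held in all 20 alternatives, 0.015 and 0.021 without M14 and M34. The 6 others were Etfdh (-0.67 ± 0.13) and Etfa (-0.61 ± 0.12), which pass electrons to the respiratory chain, the very-long-chain and long-chain dehydrogenases Acadvl (-0.71 ± 0.14) and Acadl (-0.49 ± 0.12), and the trifunctional protein subunits Hadha (-0.63 ± 0.15) and Hadhb (-0.72 ± 0.15). None of these 6 passed without M14 and M34 (0.12 to 0.28) or after median scaling (Etfdh 0.051, Acadvl 0.052, Hadhb 0.058, Etfa 0.06, Hadha 0.099 and Acadl 0.13). Leaving out M11 alone also ended them: Etfdh 0.053, Etfa 0.055, Acadvl 0.056, Acadl 0.1, Hadha 0.13 and Hadhb 0.086. Without M14 alone Acadvl (0.051), Acadl (0.13), Hadha (0.11) and Hadhb (0.077) did not pass, without M33 Acadl (0.11), Hadha (0.074) and Hadhb (0.059), and without M34 Acadl (0.091), Hadha (0.11) and Hadhb (0.082). Acadl and Hadha were also lost without M32 (0.051 and 0.054), and Acadl without M31 (0.068), M12 (0.075) and M13 (0.059). Quantile normalization and the replicate block ended Acadl (0.096 and 0.062) and Hadha (0.056 and 0.053), and fitting only the 8 libraries ended Acadl (0.051), Hadha (0.068) and Hadhb (0.054). Acadl and Acadvl were named after their values were seen, as were Hadha, Hadhb and Letmd1.

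The tricarboxylic acid cycle had 3 of 16 genes lower, 0 higher and all 16 negative (median -0.46), where 0.9% of all genes fell and 64.0% were negative. It had 1 call and a median of -0.36 without M14 and M34, and 2 calls and a median of -0.40 after median scaling. With only the 8 libraries fitted, 5 of 16 were lower. Suclg1, the α subunit of succinyl-CoA ligase, read 114.09, 111.47, 114.20 and 139.03 FPKM in knockouts and 222.57, 195.71, 202.22 and 277.85 in wild types. The groups did not overlap and the difference of -0.89 ± 0.14 (adjusted p = 0.0023) held in all 20 alternatives (0.0014 to 0.017). Sucla2, its ATP-forming β subunit, fell by 1.06 ± 0.18 (0.0031; 0.053 without M14 and M34). Idh3a, of NAD-dependent isocitrate dehydrogenase, fell by 0.69 ± 0.16 (0.035) and passed in 7 of 20 alternatives (0.017 to 0.22), losing its call without M32 (0.093), M33 (0.1), M34 (0.1), M11 (0.12), M12 (0.077), M13 (0.061) or M14 (0.1), after median scaling (0.12) or quantile normalization (0.06), with the replicate block (0.058) and, narrowly, without a filter (0.05). All 30 nuclear-encoded respiratory chain genes were negative (64.0% of all genes), with a median of -0.37 and a range of -0.58 to -0.13, but 2 passed, and 0 after median scaling (median -0.31, all 30 negative). These were Cyc1, cytochrome c1 (-0.58 ± 0.14, 0.04), and Ndufb8, of complex I (-0.55 ± 0.13, 0.045), which passed in 9 and 7 of 20 alternatives. Without M14 and M34 their adjusted p was 0.13 and 0.14, and 0 of 30 respiratory chain genes passed, with a median of -0.31. Median scaling ended both (Cyc1 0.14, Ndufb8 0.16), as did no filter (0.053 and 0.066) and fitting only the 8 libraries (0.053 and 0.098), and Ndufb8 was lost with quantile normalization (0.056) and both tables (0.057). Cyc1 was also lost without M31 (0.07), M32 (0.098), M33 (0.12), M11 (0.16), M12 (0.065) or M14 (0.12), and Ndufb8 without M31 (0.078), M32 (0.12), M33 (0.12), M34 (0.055), M11 (0.17) or M14 (0.15).

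**Figure D3:**
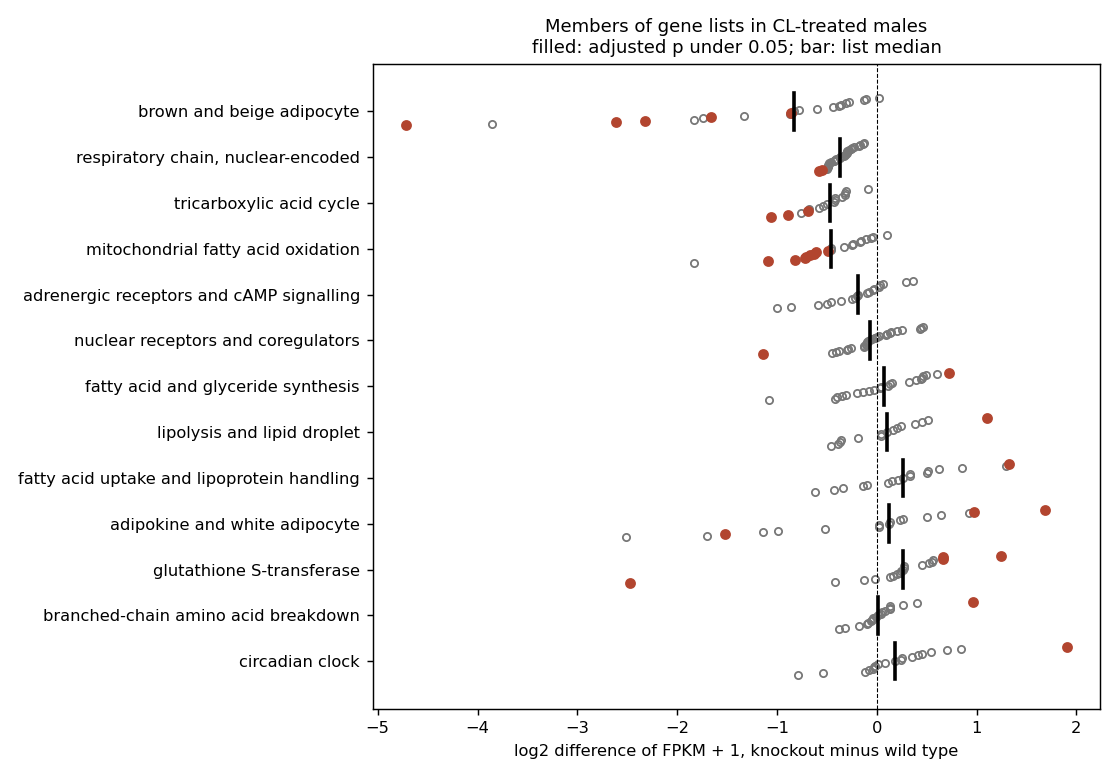
Log2 difference of FPKM + 1 (x axis, knockout minus wild type) of each tested member of 13 gene lists, filled where the adjusted p is under 0.05, with the list median as a bar. The medians of the first 4 lists lie at -0.83, -0.37, -0.46 and -0.46, and those of lipid storage and uptake lists lie at or above 0.07.

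Genes of lipid uptake and storage went the other way in single members. Cidec, which fuses lipid droplets in white adipocytes, read 1551.27, 1811.29, 2042.87 and 2535.99 FPKM in knockouts and 736.18, 1011.24, 946.20 and 963.68 in wild types. Every knockout lay above every wild type (1.10 ± 0.22, adjusted p = 0.014), but the call was lost without M11 (0.067), M34 (0.066) or M14 and M34 (0.12). Dgat1, which makes triglyceride, was at 198.50 to 259.79 against 131.17 to 154.64 FPKM (0.72 ± 0.16, 0.026) and did not pass without M32 (0.078), M33 (0.062), M34 (0.091), M11 (0.095), M12 (0.071), M13 (0.073) or M14 and M34 (0.12). Beside these, 1 of 17 uptake genes rose (Slc27a1), 1 of 15 lipolysis and droplet genes (Cidec) and 1 of 22 synthesis genes (Dgat1), with 0 lower in each, where 0.663% of all genes rose. Slc27a1 alone passed without M14 and M34. After median scaling 3 of 15 lipolysis genes rose, Cidec, Pnpla2 (0.037) and Abhd5 (0.048). Medians of the uptake, lipolysis and synthesis lists were 0.26, 0.10 and 0.07 with all libraries, and 0.20, 0.08 and 0.13 without M14 and M34. The triglyceride lipase Pnpla2, at 1893.07 to 2927.27 against 1626.66 to 1805.01 FPKM, did not pass (0.51 ± 0.14, 0.07), nor did lipoprotein lipase, Lpl (0.62 ± 0.20, 0.14).

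White adipocyte products were divided. Of 17 adipokine and white adipocyte genes, 2 rose, Rbp4 and Agt, and 1 fell, Mest (median 0.12), where 0.663% and 0.9% of all genes did. Only the call of Mest was left without M14 and M34, and the median was 0.06. Rbp4, the retinol carrier of plasma, read 1118.43, 1077.51, 992.19 and 1087.76 FPKM in knockouts and 475.33, 698.56, 587.57 and 446.23 in wild types, again without overlap (0.97 ± 0.18, adjusted p = 0.01; 0.053 without M11 and 0.11 without M14 and M34). Mest, a gene tied to adipocyte enlargement, read 13.10, 6.81, 4.44 and 8.42 against 22.03, 35.88, 30.88 and 13.25 FPKM (-1.52 ± 0.34, 0.024; 0.034 without M14 and M34). Its highest knockout, M31, lay just under its lowest wild type, M14. The Mest call was lost without M32 (0.08), M33 (0.084), M34 (0.063), M11 (0.063), M12 (0.092) or M13 (0.081), and with only the 8 libraries (0.06). Leptin, Lep, was at 79.11 to 181.10 against 194.23 to 367.21 FPKM (-0.99 ± 0.33, 0.16) and adiponectin, Adipoq, at 2925.97 to 3483.94 against 1904.08 to 2693.46 (0.50 ± 0.19, 0.23), neither of which passed. Resistin, Retn, was close to the threshold (0.64 ± 0.16, 0.056; 0.03 to 0.34 over alternatives). As a whole, the 5 adipocyte markers had a mean log2 level of 11.79 to 12.17 in knockouts and 11.48 to 11.63 in wild types.

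Glutathione S-transferases rose in 3 of 19 and fell in 1 (median 0.26, 15 positive), where 0.663% of all genes rose and 0.9% fell. Median scaling gave 5 higher (with Gstm7 and Mgst1) and quantile normalization 4 (with Gstm7). There were 2, Gsta3 and Gsto1, without M14 and M34, and the median was 0.15. Gsto1, of the omega class, was at 134.89 to 169.62 FPKM against 90.22 to 99.48 (0.66 ± 0.11, adjusted p = 0.0029; 0.037 without M14 and M34) and passed in all 20 alternatives. Gsta3 rose and Gstm6 fell as given above. Gstm1, at 313.10 to 622.18 against 278.86 to 313.68 FPKM with M31 inside the wild-type range, passed (0.66 ± 0.15, 0.033) in 10 of 20 alternatives. It was lost without M32 (0.08), M33 (0.11), M34 (0.12), M11 (0.12), M12 (0.09), M13 (0.065) or M14 (0.068), and with only the 8 libraries (0.12). In branched-chain amino acid breakdown 1 of 19 genes rose (0.663% of all genes did), Bcat2, the mitochondrial transaminase of the first step (0.96 ± 0.20, 0.016; 0.12 without M14 and M34, 0.051 without M32, 0.065 without M34, 0.056 without M11 and, narrowly, 0.05 with only the 8 libraries).

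The receptor that CL316,243 binds, Adrb3, read 202.68, 213.43, 212.32 and 196.04 FPKM in knockouts and 228.65, 253.49, 225.53 and 155.45 in wild types. The groups overlapped (-0.04 ± 0.18, adjusted p = 0.95; 0.38 to 1.0 over alternatives). Of 19 adrenergic and cyclic AMP genes 0 passed by limma (5 at an unadjusted p under 0.05, against 13.8% of all genes; median -0.19), among them the receptor Adrb1 (-0.50 ± 0.17, 0.16) and the phosphodiesterase Pde4b (-0.86 ± 0.35, 0.26; 0.047 with only the 8 libraries). Of 19 clock genes 1 rose (0.663% of all genes did), the repressor Ciart, at 15.16, 8.51, 17.29 and 41.26 against 2.16, 2.59, 3.06 and 12.01 FPKM (1.91 ± 0.41, 0.021). In both groups the highest value was that of the muscle-rich library. Without M14 and M34 Ciart differed by 1.98 ± 0.28 (0.0022), but it was lost without M33 (0.052), M34 (0.082), M11 (0.1), M12 (0.078) or M13 (0.068), and with only the 8 libraries (0.11). The clock list's median was 0.18, and 0.11 without both. No gene passed among 21 of glycolysis, 18 of cholesterol synthesis, 22 of collagen and matrix, 14 interferon-stimulated genes, 14 immediate early and heat shock genes and 13 of cell division (0 each by limma, with 13 of these 102 at an unadjusted p under 0.05 and medians of -0.31 to 0.04, or -0.33 to 0.23 without M14 and M34). Over all genes 1.56% passed and 13.8% had an unadjusted p under 0.05, so the pooled count does not stand out. The lists differed: 6 of 21 glycolysis genes had an unadjusted p under 0.05 by limma, and 0 of the interferon and cell division genes. Of the glycolysis genes 15 of 21 were negative (median -0.23), as were 64.0% of all genes. With only the 8 libraries fitted, 1 of the 14 immediate early and heat shock genes passed.

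The same contrast in females and in saline asks which of these differences belong to CL and to males. The 3 comparisons share no library. In CL-treated females 1444 genes passed, 1004 higher (7.66%) and 440 lower (3.36%), and in saline-treated males 202, 94 higher (0.717%) and 108 lower (0.824%). Of the 118 genes lower in CL-treated males, 71 (60.2%) were also lower in females, which is 16.1% of the female list, and 30 (25.4%) in saline males, 27.8% of that list. Of the 87 higher, 14 (16.1%) were higher and 2 lower in females, and 21 (24.1%) were higher in saline males. When M14 and M34 were left out, 22 of 29 lower genes were also lower in females (75.9%, and 4.11% of the female list) and 17 in saline males (58.6% and 16.3%). Of 23 higher genes, 7 were higher and 1 lower in females, and 12 were higher in saline males. The saline males hold muscle signal unevenly (median log2 difference of the muscle list 5.14), and with the second deposited table added their calls numbered 967.

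Ucp1 differed by -4.46 ± 0.54 in CL-treated females (adjusted p = 0.00018) and by 0.25 ± 0.61 in saline males (0.9), where it read 0.18 to 4.24 FPKM in knockouts and 0.29 to 3.41 in wild types. The genotype effect in males was lower under CL than in saline (-4.97 ± 0.79, adjusted p = 0.023), 1 of 4 calls among 13113 genes (0.0305%), all lower. This call was lost with a pseudocount of 0.1 (0.36), without a filter (0.062) and without M11 (0.072), M14 (0.051), M31 (0.073), M32 (0.066) or M14 and M34 (0.12), and with the replicate block (0.06), with a range of 0.0017 to 0.36. All 30 respiratory chain genes were negative under CL and 4 of 30 in saline. The medians in CL males, CL females and saline males were -0.37, -0.45 and 0.21 for the respiratory chain, -0.46, -0.55 and 0.05 for the tricarboxylic acid cycle, -0.46, -0.49 and 0.11 for fatty acid oxidation and -0.83, -1.09 and 0.10 for brown and beige genes. Besides Ucp1 no member of these lists passed the test of the difference between treatments or between sexes. Of the 21 brown and beige genes, 2 were also lower in saline males, where 0.824% of all genes were. They were S100b (-1.75 ± 0.26, adjusted p = 0.0012) and Otop1 (-1.67 ± 0.34, 0.015), so their falls were seen without CL.

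The other 3 genes with a treatment difference were named after their values were seen. Sult1e1, the estrogen sulfotransferase, differed by -0.45 ± 0.17 under CL (adjusted p = 0.22) and was higher in saline knockouts (1.39 ± 0.20, 0.00097), a difference of -1.84 ± 0.26 (0.015; 0.00092 to 0.1, lost without M11 at 0.055 and with a pseudocount of 0.1 at 0.1). The major urinary proteins Mup10 (-4.08 ± 0.68, 0.028; lost without M11 at 0.072, M31 at 0.085, M32 at 0.083 and M33 at 0.068, without a filter at 0.062 and with a pseudocount of 5 at 0.1, with 0.0065 to 0.1 over alternatives) and Gm21320 (-4.40 ± 0.69, 0.023; lost without M11 at 0.072, M31 at 0.073 and M32 at 0.066, and without a filter at 0.062, with 0.011 to 0.073) are members of a family of near-identical genes, and their levels are uncertain. Both were higher in saline knockouts.

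Between sexes 1 gene passed the test of the difference (0.00763%), Reep6, a membrane-shaping protein of the endoplasmic reticulum. It read 69.14, 46.00, 59.01 and 67.39 FPKM in male knockouts and 28.24, 29.81, 27.65 and 29.15 in male wild types, which do not overlap (1.03 ± 0.13, adjusted p = 0.00024). In females it was lower in knockouts, 41.98 to 48.30 against 58.14 to 75.76 FPKM (-0.55 ± 0.14, 0.023). The male minus female difference was 1.58 ± 0.19 (0.0016; 0.0002 to 0.019 over 18 alternatives). The count of such genes was 80 after median scaling and 214 without M31, and 2826 (21.6%) had an unadjusted p under 0.05. Sugct (2.16 ± 0.58, 0.083), Slc27a1 (1.30 ± 0.31, 0.08), Cidec (1.38 ± 0.33, 0.08), Emp1 (-2.23 ± 0.49, 0.077) and Pmepa1 (-1.77 ± 0.51, 0.09) did not pass this test. In females Slc27a1 (0.03 ± 0.23), Cidec (-0.28 ± 0.24) and Rbp4 (0.04 ± 0.20) did not pass, and Sugct ranged from 0.08 to 4.50 FPKM among the 3 female knockouts.

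**Figure D4:**
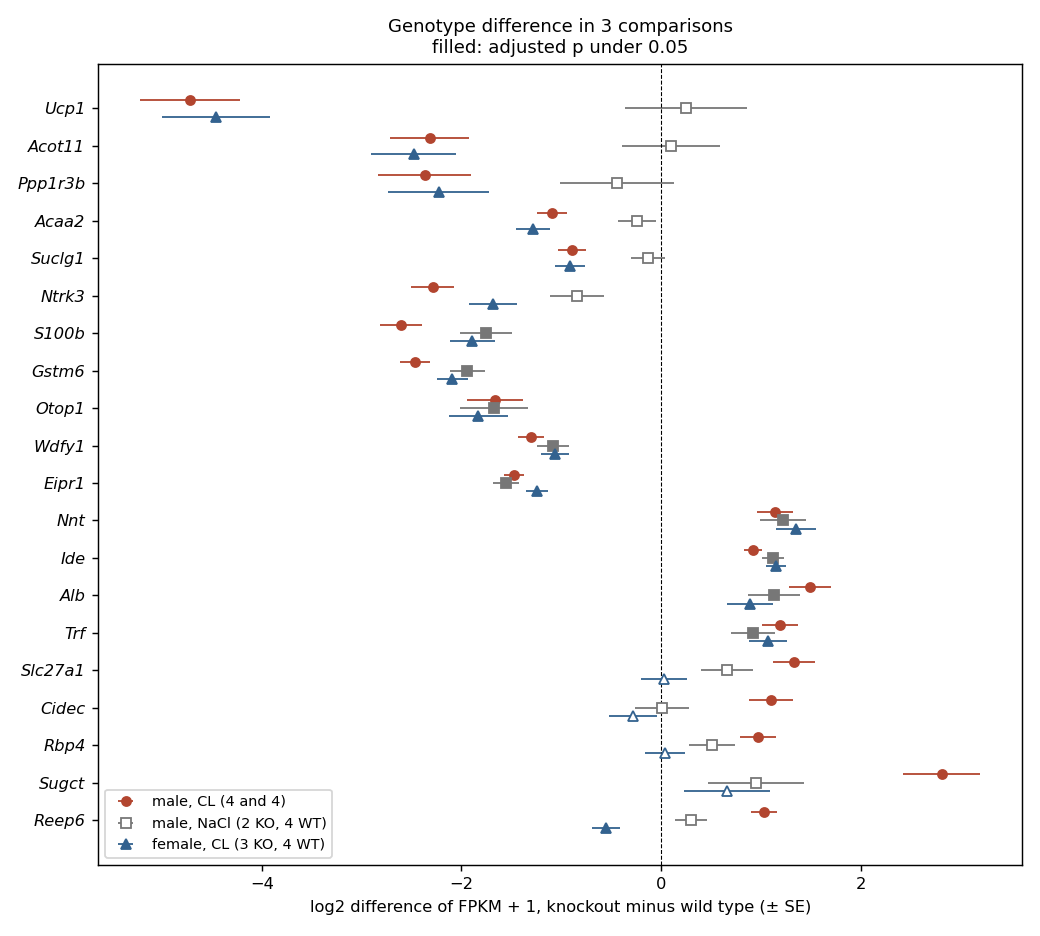
Log2 difference (x axis, knockout minus wild type, ± SE) of 20 genes in CL-treated males (red circles), saline-treated males (grey squares) and CL-treated females (blue triangles), filled where the adjusted p is under 0.05. Ucp1 lies at -4.72 and -4.46 under CL and at 0.25 in saline, while Gstm6, Eipr1, Nnt and Ide lie on one side of zero in all 3.

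Some genes differed in every comparison. A total of 28 genes passed in CL males, CL females and saline males in the same direction, 9 higher and 19 lower. Without M14 and M34 there were 7 and 14. Among the 28 were the targeted gene Ncoa1 itself and, from above, Gstm6, S100b, Otop1, Lrmda, Prr32 and Alb. Others, named after their values were seen, were Eipr1, Wdfy1, Nnt, Ide, Pqlc3 and Trf. Of the 28, Pqlc3, Eipr1 and the predicted genes Gm17330, Gm29758, Gm32719 and Gm46340 lie on chromosome 12, as Ncoa1 does. Further predicted genes are among the rest. Eipr1, an EARP complex-interacting protein, read 7.82, 7.77, 9.02 and 8.07 FPKM in knockouts and 24.93, 26.18, 24.06 and 22.49 in wild types (-1.47 ± 0.10, adjusted p = 1.2e-07). Nnt, the mitochondrial transhydrogenase that makes NADPH, read 9.13, 8.95, 7.59 and 7.29 against 3.01, 2.96, 3.41 and 3.40 FPKM (1.14 ± 0.18, 0.0027). The knockouts lay on one side of the wild types in both, with little spread in either group. Ide, the insulin-degrading enzyme, rose by 0.92 ± 0.09 (9.4e-06), Trf, transferrin, by 1.19 ± 0.18 (0.0011), and the endosomal gene Wdfy1 fell by 1.30 ± 0.13 (9.4e-06). All of these passed in all 20 alternatives.

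Called genes made up a larger share within 20 Mb of Ncoa1 on chromosome 12, which was not tested. Within 10 Mb of its start 2 of 36 tested genes passed, Ncoa1 and the retinol dehydrogenase Rdh14, and within 20 Mb 8 of 65 (12.3%), 4 lower and 4 higher. These counts include the targeted gene itself, and apart from Ncoa1 and Rdh14 the calls lay 12.7 to 19.6 Mb away. On the rest of the chromosome 7 of 392 passed (1.79%) and on other chromosomes 182 of 12610 (1.44%). In a window of 30 Mb, added after the values were seen, it was 10 of 105 (9.52%). Without M14 and M34, Ncoa1 was the 1 of 36 that passed within 10 Mb. Then 4 of 65 passed within 20 Mb (6.15%) and 43 of 12487 on other chromosomes (0.344%). Pqlc3, at 12.7 Mb, read 9.99, 10.05, 10.15 and 9.44 FPKM in knockouts and 22.59, 25.55, 24.50 and 20.52 in wild types (-1.15 ± 0.13, adjusted p = 7.8e-05; passing in all 20 alternatives). Itgb1bp1, an integrin-binding adaptor 17.0 Mb away, rose (0.83 ± 0.16, 0.009; 0.12 without M14 and M34). Eipr1 lies at 24.5 and Fam110c at 26.8 Mb. Rdh14 differed by -0.38 ± 0.09 (0.031; 7 of 20 alternatives, 0.027 to 0.18) and was lost whichever library was left out (0.057 to 0.096), after median scaling (0.17) or quantile normalization (0.12) and with the replicate block (0.058). The other calls within 20 Mb were the predicted genes Gm32719, Gm29758, Gm46340 and Gm17330. Whether this stretch carries other sequence differences between the mouse lines was not tested.

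**Figure D5:**
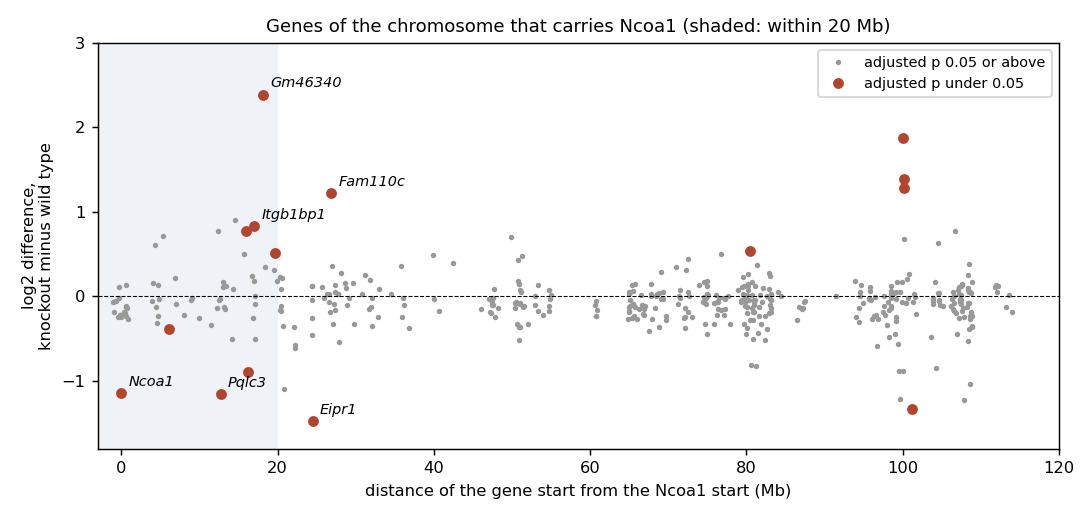
Log2 difference (y axis, knockout minus wild type) of each tested gene of chromosome 12 against the distance of its start from that of Ncoa1 in Mb (x axis), red where the adjusted p is under 0.05. Within the shaded 20 Mb 8 of 65 genes, Ncoa1 among them, are red, against 7 of 392 beyond it.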

How the data were processed

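The authors deposited FPKM in 2 separate tables, and HISAT2 2.0.4 and GRCm38/mm10 are listed in the submitters' processing notes. What computed the FPKM, and on which annotation, is not stated in those notes. Treatment labels of the CL samples count upward, so libraries were grouped by their titles. The first table (24 columns, 18658 genes) was fitted. The second (5 columns) was used only in an alternative, since 2 of its column names repeat. The 13113 genes that reached 1 FPKM in 3 or more columns were analysed as log2(FPKM + 1) with limma 3.58.1 in R 4.3.3 (trend, 8 group means, two-sided, 16 residual and 2.96 prior degrees of freedom), with Benjamini-Hochberg adjustment per comparison and a threshold of 0.05. FPKM gives no counts, so depth is unknown; the value of 1 read, estimated from low values, was 0.987 to 1.06 times that of the other libraries. The fit was also run on simulated data with independent libraries and, for each gene, the same spread in all groups. Those data hold no muscle-rich or lymphocyte-poor library, so that run cannot show how the fit handles such libraries.

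Positions come from RefSeq (GRCm38.p6), which held 18536 of the 18658 gene identifiers, and 26 symbols stored as dates were resolved by identifier where possible. Members, the 32 gene lists and tests were chosen with earlier results of these data known. Named genes follow a rule: 11 genes always, the 12 largest rises and 12 largest falls among calls whose groups do not overlap and whose higher mean is at least 5 FPKM (no predicted genes), up to 4 members of smallest p for each list described, calls within 10 Mb of Ncoa1, and up to 5 a direction for each difference. Genes named outside it are said to be so. The 20 alternatives changed the pseudocount, filter, scaling, trend, libraries fitted, table and block, or left out libraries. Y-linked genes were present in all 8 libraries, as the male label has it.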

Additional observations from a re-analysis of the deposited data

Results flagged for a closer look

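Single libraries lay far from the other 3 of their group in 12 of the 214 groups of 4 examined (107 named genes in both genotypes). Chance gives about 1 in 20. Skeletal muscle genes account for 6 of them: in M14 Myl1 read 741 FPKM, Acta1 868, Myh1 36.7 and Myh2 6.22, and in M34 Acta1 read 213 and Myh1 2.37. M34 was also apart for Ndufb8 (960 FPKM, the highest knockout), Suclg1 (139, the highest) and the clock activator Arntl (0.64, the lowest). Apoc4, an apolipoprotein, was at 18.3 FPKM in M31, above the other knockouts. Ncoa4, a ferritin receptor, was at 38.4 in M11, and Itgb1bp1 at 38.3 in M14, each the lowest wild type.

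Genotype effects differed by the test of the difference itself for Reep6 between sexes (1.58, male minus female) and, between treatments (CL minus NaCl, males), for Ucp1 (-4.97), Sult1e1 (-1.84), Mup10 (-4.08) and Gm21320 (-4.40). The part played by muscle signal, high in M14 and M34 and uneven among the saline males, was not tested.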

How the results depend on the processing

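Over the 20 alternatives the male CL comparison gave 63 to 246 calls when a single library was left out, 52 without M14 and M34, and 115 with only the other 6 libraries fitted, against 205. The number of calls in the remaining settings stayed within 1.5 times of it, among them 159 with the replicate block. The genes called changed more. With only the 8 libraries fitted, 59 of the 87 higher and 80 of the 118 lower genes were called again. After quantile normalization it was 87 of 87 and 71 of 118. The 8 genes within 20 Mb of Ncoa1 became 5 with a 5 FPKM filter, 4 without M14 and M34, 5 with only those 6 libraries and 5 to 6 when single libraries were left out. The sex difference, 1 gene, became 3 with the 5 FPKM filter, 34 after quantile normalization, 80 after median scaling, 2 without the trend, 2 with the replicate block, 17 with both tables and 1 to 214 when single libraries were left out. The treatment difference, 4 genes, became 2 with a pseudocount of 0.1, 1 without a filter, 7 with both tables and 0 to 5 when single libraries were left out (0 without M11, where limma gave 786, or 5.99% of all genes, at an unadjusted p under 0.05 with all libraries). Saline males went from 202 to 967 with both tables. No sign of a called named gene reversed. Replicate numbers were not treated as pairs in the main fit. Deviations of same-numbered libraries correlated at -0.0112, 0.0712, -0.0413 and 0.341, and same-numbered libraries were not always the best match. The value of 0.341, the highest of any pair, was that of the muscle-rich libraries M34 and M14. Adding the replicate block ended the calls of 8 named genes. Depth is unknown, so levels under about 1 FPKM are the least certain.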

Other observations

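Several higher genes encode plasma proteins known mainly from liver, a group put together after the values were seen. Besides Alb, Rbp4, Agt and Trf, Orm1, an acute-phase glycoprotein, was at 697.86 to 854.67 FPKM in knockouts and 424.27 to 435.72 in wild types (0.82 ± 0.17, adjusted p = 0.014; 0.12 without M14 and M34, 0.055 without M11 and 0.058 without M34). Selenop, the selenium carrier, was at 901.80 to 1334.15 against 576.09 to 664.77 FPKM (0.77 ± 0.16, 0.017; 0.076 without both, 0.076 without M32, 0.06 without M11 and 0.055 without M14). Not every plasma protein gene of this kind rose. Serpina1e (log2 difference -1.207), Serpina1b (-0.876) and Serpina10 (-0.557) were lower without a call, and Serpina1a stood at 0.05. Of 7 genes typical of hepatocytes, 6 were under 1 FPKM in all 8 libraries: Fga and Apob are listed at 0, and Ttr, Fgb, Ahsg and Apoa1 reached at most 0.04, 0.06, 0.13 and 0.51 FPKM. The exception was the apolipoprotein Apoc3, at 4.55 to 9.67 FPKM in knockouts and 2.75 to 5.35 in wild types, which overlap (0.83 ± 0.36, adjusted p = 0.31).

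Hemoglobin and other red cell genes had higher summed levels in knockouts (6080 to 10800 FPKM) than in wild types (2820 to 6490), with 5 of 5 positive (median 0.77). By limma 0 of 5 passed, and 5 had an unadjusted p under 0.05, as did 13.8% of all genes. The median of these red cell genes was 0.65 without M14 and M34 and 0.84 in saline males. In CL-treated females it was -0.71, with all 5 negative. Macrophage genes had a median of 0.05 in CL males (0.36 without M14 and M34) and 0.99 in CL females. In females 8 of 15 were higher, against 7.66% of all genes, whose median there was 0.09. Progenitor genes had medians of -0.04 in CL males (0.11 without M14 and M34) and 0.98 in CL females, where 5 of 12 were higher. The difference between sexes passed for 0 genes of either list.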
